A study of Mus musculus with 86 samples.

Results

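The 7 genes described here, H19, Igf2, Kcnq1, Kcnq1ot1, Cdkn1c, Phlda2 and Ascl2, lie on distal mouse chromosome 7 and belong to the H19-Igf2 and Kcnq1 imprinted domains. Every interval within 50 kb of the body of any of them was taken from the peak lists of SOX2, an HMG-box transcription factor of pluripotent cells, and CTCF, the zinc finger protein of insulators and chromatin loop anchors. This gave 205 of the 327957 intervals in 8 lists, 46 in the H19-Igf2 domain and 159 in the Kcnq1 domain. The lists come from chromatin immunoprecipitation with sequencing of mouse embryonic stem cells of strain 129S5/SvEvBrd, grown in serum with leukemia inhibitory factor. Mitotic cells had been held in nocodazole, a microtubule poison, at 100 ng/ml for 6 h and then shaken off the dish, and asynchronous cells were untreated. Antibody AF2018 was used for SOX2 and ab70303 for CTCF, with 2 mitotic and 2 asynchronous libraries each, 8 of the 86 libraries of the series. The labels do not tie replicates to separate cultures, which leaves it possible that their spread is technical, and they give no share of mitotic cells in the shaken-off fraction. The reads of both parental alleles are joined in each list.

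Imprinted genes are expressed mainly from the allele of 1 parent. Between H19 and Igf2, a differentially methylated control region binds CTCF on the unmethylated maternal allele, where it insulates Igf2 from enhancers shared with H19. In the neighbouring domain the unmethylated paternal copy of a control region inside Kcnq1 drives the antisense RNA Kcnq1ot1, which keeps Kcnq1, Cdkn1c, Phlda2 and other genes of that chromosome silent.

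Promoter sequences are shown for 4 genes of these domains whose start lay under a peak that the results below turn on, each running from 250 bases before to 50 bases after the annotated start, 5′ to 3′ on the gene's strand, from RefSeq on GRCm38.p6. Gm33663 (chr7:143466448-143466747, minus strand), an uncharacterised gene between Cdkn1c and Slc22a18, lay under a strong CTCF region called in both mitotic libraries. Mrpl23 (chr7:142532782-142533081, plus strand), which codes for a mitochondrial ribosomal protein, had the only CTCF region near H19 or Igf2 called in both. Gm33148 (chr7:142610569-142610868, plus strand), uncharacterised and located between H19 and Igf2, had a SOX2 and a CTCF region at its start. Kcnq1ot1 (chr7:143296498-143296797, minus strand) had a SOX2 region and no CTCF region there. Capitals mark a match to the CTCF core, spelled as CC, any 3 bases, AG, any 2 bases and GGC.
Gm33663: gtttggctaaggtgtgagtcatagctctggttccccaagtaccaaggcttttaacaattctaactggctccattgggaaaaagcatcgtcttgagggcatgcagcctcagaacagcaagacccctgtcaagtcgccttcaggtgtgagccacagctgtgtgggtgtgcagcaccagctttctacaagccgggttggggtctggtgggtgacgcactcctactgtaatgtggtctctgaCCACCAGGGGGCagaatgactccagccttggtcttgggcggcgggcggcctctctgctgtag
Mrpl23: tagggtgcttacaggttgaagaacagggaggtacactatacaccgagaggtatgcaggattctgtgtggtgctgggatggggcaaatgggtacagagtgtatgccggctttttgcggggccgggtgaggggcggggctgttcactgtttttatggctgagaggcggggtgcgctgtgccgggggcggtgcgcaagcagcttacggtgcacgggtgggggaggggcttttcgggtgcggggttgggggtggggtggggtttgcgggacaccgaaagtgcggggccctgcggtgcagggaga
Gm33148: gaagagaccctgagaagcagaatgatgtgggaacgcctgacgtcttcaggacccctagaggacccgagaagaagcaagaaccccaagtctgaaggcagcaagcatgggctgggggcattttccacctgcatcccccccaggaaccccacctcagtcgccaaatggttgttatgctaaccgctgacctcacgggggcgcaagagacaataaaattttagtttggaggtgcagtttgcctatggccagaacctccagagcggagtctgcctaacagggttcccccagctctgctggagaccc
Kcnq1ot1: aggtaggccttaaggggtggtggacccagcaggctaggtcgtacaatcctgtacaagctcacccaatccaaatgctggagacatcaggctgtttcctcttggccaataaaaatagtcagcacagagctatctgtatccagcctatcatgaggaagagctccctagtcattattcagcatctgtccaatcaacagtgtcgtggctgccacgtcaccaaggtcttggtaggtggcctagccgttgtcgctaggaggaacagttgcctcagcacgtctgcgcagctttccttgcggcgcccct
The windows were searched on both strands for this core, for the SOX letters CATTGT and for the octamer ATGCAAAT, which are held by 8.61%, 12.6% and 1.74% of all 32851 RefSeq promoter windows of this length. The core in Gm33663, CCACCAGGGGGC at positions 239 to 250 counted from 1 at the 5′ end, was the only match in the 4 windows shown, so no matches overlapped. It runs from 12 bases before the start of Gm33663 up to the base next to the start. The CTCF summits stood 10 bases after and 40 bases before the start in mitotic libraries, against 3 bases after and 3 bases before it in asynchronous libraries. Of the 7 genes, 4 matched a promoter window (Igf2, Kcnq1ot1, Phlda2 and Ascl2). The Igf2 window at chr7:142661222-142661521 held CATTGT at positions 195 to 200. A match is a match of letters and was not tested as a binding site.

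Across both domains, mitotic cells had far fewer called peaks of both factors, and the loss of calls was larger for SOX2. Antibody and depth differ between the factors, so this compares detection of peaks. The SOX2 lists held 1 and 1 intervals near the 7 genes in mitotic libraries, against 50 and 39 in asynchronous libraries. The CTCF lists held 18 and 11 intervals in mitotic libraries, against 42 and 43 in asynchronous libraries. For neither factor did the groups overlap: the mean was 1 ± 0 mitotic against 44.5 ± 7.78 asynchronous SOX2 intervals, 44.5-fold fewer, and 14.5 ± 4.95 mitotic against 42.5 ± 0.707 asynchronous CTCF intervals, 2.93-fold fewer (SD, n = 2 libraries each). A two-sided exact permutation test gave p = 0.333 for each factor, the smallest p that 2 against 2 libraries allow. All mitotic intervals of both factors, 18, 11, 1 and 1, overlapped an interval of an asynchronous list of the same factor. The same share over all mitotic peaks was not computed, so this is not given as a trait of these domains.

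Depth, estimated from the lists, was 3.62 and 3.77 reads per 100 bp in mitotic CTCF libraries, against 3.36 and 3.71 in asynchronous CTCF libraries. For SOX2 it was 2.62 and 1.64 in mitotic libraries, against 2.48 and 1.61 in asynchronous libraries, so the conditions lay in the same range of depth. Genome-wide the lists held 1976 and 408 mitotic against 90266 and 63504 asynchronous SOX2 peaks, and 20142 and 15338 mitotic against 68328 and 67995 asynchronous CTCF peaks. All 8 stem cell genes looked up to check the cell type label (Pou5f1, Nanog, Sox2, Esrrb, Zfp42, Tfcp2l1, Klf4 and Dppa3) had 7 to 16 asynchronous SOX2 regions within 50 kb. Over all protein-coding genes the median was 4, and 85.7% had at least 1, so having one does not set stem cell genes apart, and peak lists hold no expression values to check the label with.

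**Figure D1:**
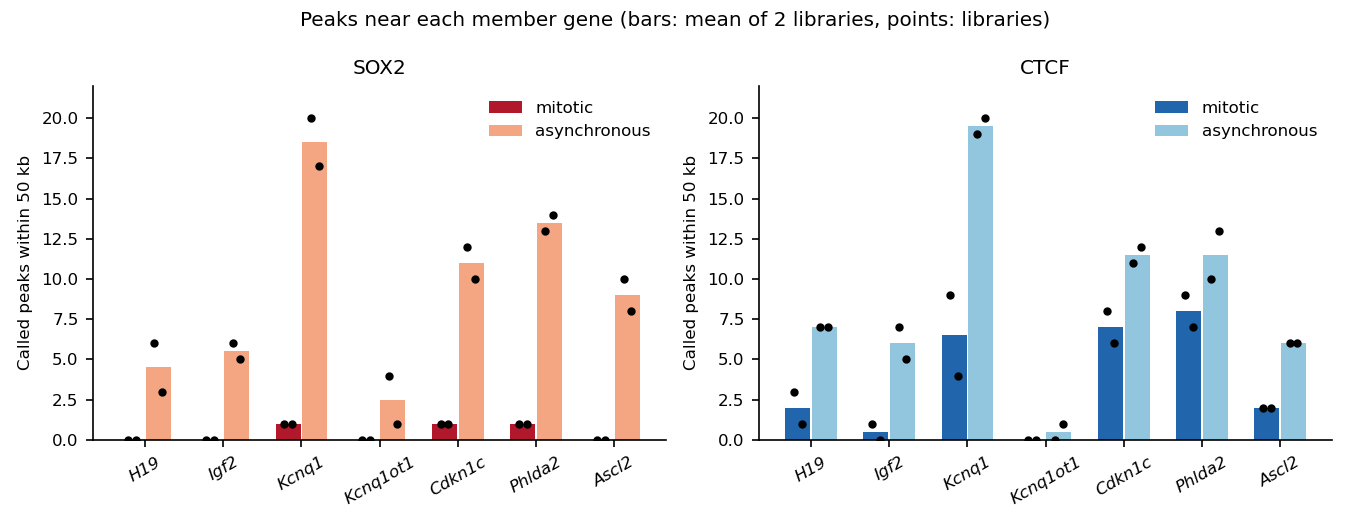
Called peaks within 50 kb of each gene (vertical axis, number of peaks) for SOX2 on the left and CTCF on the right, with mitotic bars left of asynchronous bars; bars are means of 2 libraries and points are the libraries. Kcnq1ot1 had no mitotic peak of either factor, and mitotic SOX2 bars stand only at Kcnq1, Cdkn1c and Phlda2, whose windows share the same peak.

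To follow single sites, peaks of both asynchronous libraries that overlapped were merged, and only regions found in each of these libraries were kept. A region counted as called in mitosis where at least 1 bp of it lay under a mitotic peak. The 7 genes had 34 such CTCF regions and 31 SOX2 regions, or 4.30 and 3.92 per 100 kb of their windows. Chromosome 7 had 2.64 and 2.08 per 100 kb, and all chromosomes 2.13 and 1.90. Those are whole chromosome lengths, with stretches far from genes included, so the densities are not matched to windows around genes. Both mitotic libraries called 10 of the 34 CTCF regions, 1 library called 5 and neither called 19, where the genome-wide shares were 24.5% in both, 34.0% in either and 66.0% in neither, of 57992 CTCF regions. Of the 31 SOX2 regions, 1 was called in both and 30 in neither, where 0.675% of 51672 SOX2 regions genome-wide were called in both, 3.45% in either and 96.6% in neither. The CTCF share called in both near these genes, 29.4%, lay near that of all CTCF regions, and for SOX2 the count rests on 1 region.

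By library, 44.1% and 29.4% of the CTCF regions were called in mitotic replicates 1 and 2 (95% Wilson intervals 28.9% to 60.5% and 16.8% to 46.2%, counting error only), beside 33.0% and 25.4% genome-wide. The share was 3.23% in each mitotic SOX2 library (0.572% to 16.2%), beside 3.37% and 0.755% genome-wide. The mean shares, 36.8% ± 10.4 for CTCF and 3.23% ± 0 for SOX2 (SD, n = 2 mitotic libraries each), differed by 33.5 percentage points without overlap (two-sided exact permutation p = 0.333, the smallest possible). Antibody and depth differ between the factors, so the shares compare detection. Asynchronous SOX2 peaks near the 7 genes had medians of 29 and 20 summit reads, and the lowest summits in the mitotic SOX2 lists had 18 and 15. For CTCF the medians were 71.5 and 66, and the lowest mitotic summits had 20 and 22. All 5 CTCF regions called in 1 mitotic library were called in replicate 1. Genome-wide, replicate 1 called 19155 CTCF regions, replicate 2 called 14756 and both called 14210. Most single calls were thus in replicate 1 there too. Near the 7 genes, 61.1% of the CTCF peaks of mitotic replicate 1 overlapped one of replicate 2, against 100% the other way.

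H19 is a long noncoding RNA expressed from the maternal allele, and no list had a peak inside its body (7:142575530-142578146, mm10). Within 50 kb of it, the mitotic CTCF lists held 3 and 1 peaks, against 7 and 7 in the asynchronous CTCF lists, and the mitotic SOX2 lists held none, against 6 and 3 in the asynchronous SOX2 lists. The 6 CTCF regions split into 1 called in both mitotic libraries, 2 called in 1 and 3 called in neither. Genome-wide, 24.5% of CTCF regions were called in both and 66.0% in neither.

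On the Igf2 side of H19, where the control region is known to lie, a pair of adjacent CTCF regions stood 1.79 kb and 3.29 kb from the gene, and neither was called in a mitotic library. The nearer one, 7:142579939-142581344, had 66 and 65 reads at its summit in asynchronous libraries, with folds of 8.51 and 7.93 over the local background. The other, 7:142581438-142582382, had 63 and 57 reads and folds of 6.34 and 6.97 in asynchronous libraries. These folds put them in the middle to upper range of asynchronous CTCF regions, at strength percentiles of 70.7 and 59.4, where strength is the percentile of a region's fold in its own list averaged over both asynchronous libraries. All regions were put in 4 equal classes of strength, class 4 being the strongest. These stood in class 3, of which 26.9% genome-wide were called in both mitotic libraries.

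A SOX2 region, 7:142581102-142582071, overlapped both of these CTCF regions and was the strongest SOX2 region near H19, at the 91.0 percentile. It had 109 and 49 reads at its summit in asynchronous libraries, with folds of 13.7 and 9.84, and was not called in a mitotic library. Over the 4 pairs of asynchronous libraries its summit lay 262 to 517 bp from the nearest CTCF summit.

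The CTCF region called in both mitotic libraries near H19 was 41.9 kb away, over Mrpl23 (7:142532772-142533659). It had 52 and 47 reads at its summit in mitotic libraries, against 178 and 167 in asynchronous libraries, with folds of 4.69 and 4.42 against 9.33 and 10.8. A second region over Mrpl23, 7:142537671-142538381, was the strongest CTCF region near H19 at the 87.9 percentile, and it was called in mitotic replicate 1 only, with 29 reads there, against 141 and 134 reads in asynchronous libraries. Reads and folds belong to lists called separately and are given to describe each peak, not as a change in coverage.

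Igf2, an imprinted fetal growth factor expressed from the paternal allele, was the protein-coding gene of the set with no CTCF region called in both mitotic libraries within 50 kb; genome-wide, 63.6% of 21887 protein-coding genes had one. Its window held 1 and 0 mitotic CTCF peaks, against 7 and 5 asynchronous CTCF peaks. Of its 5 CTCF regions 4 were called in neither mitotic library, beside 66.0% of all CTCF regions genome-wide. Among the 4 was the strongest, 7:142671985-142672627, 5.17 kb from the gene at the 84.6 percentile with 85 and 81 asynchronous reads. Another strong one, 7:142714498-142715312 over the uncharacterised gene Gm39116, had 102 and 126 asynchronous reads and was called in neither. Both stood in class 4 of strength, of which 67.5% genome-wide were called in both mitotic libraries.

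The region shared by the windows of H19 and Igf2, 7:142610360-142611183 at Gm33148, was called in mitotic replicate 1 with 32 reads, not in replicate 2, and had 101 and 92 asynchronous reads. The SOX2 summit of asynchronous replicate 2 lay 74 and 85 bp from the asynchronous CTCF summits there, and that of replicate 1 lay 532 and 543 bp away. At Gm39116 the distances over the 4 pairs of asynchronous SOX2 and CTCF libraries were 28 to 103 bp. Within Igf2 itself, the strongest of 3 SOX2 regions, 7:142655723-142656207, had 66 and 17 asynchronous reads, and the weak CTCF region 7:142659114-142659653 had 32 and 32. None of the 5 SOX2 regions near Igf2 was called in mitosis, and the mitotic SOX2 lists held 0 and 0 peaks there, against 6 and 5 in asynchronous lists.

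**Figure D2:**
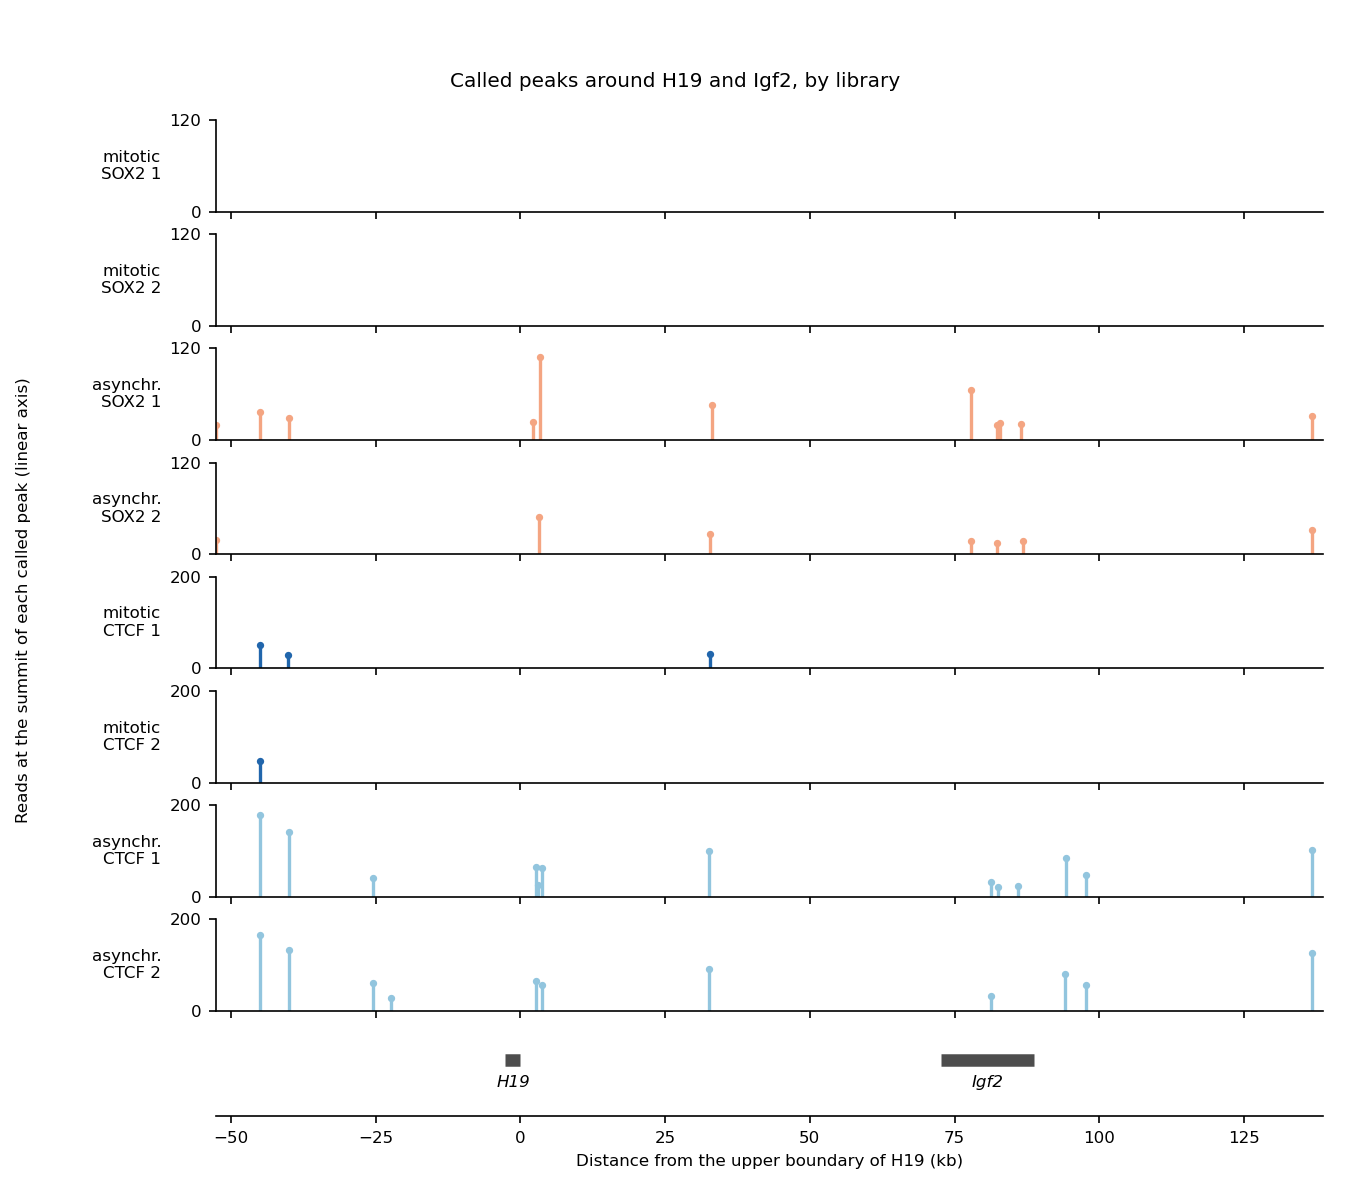
Peaks around H19 and Igf2 in each library, mitotic above asynchronous for each factor: horizontal axis, distance from the upper boundary of H19 in kb toward higher coordinates; vertical axis, reads at the summit of each called peak. The CTCF and SOX2 peaks a few kb right of H19 are in asynchronous tracks only, and the peak at Mrpl23, 41.9 kb left of the gene, is in all 4 CTCF tracks.

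Kcnq1, the pore subunit of a voltage-gated potassium channel, spans 320174 bp (7:143106877-143427050) and had the most regions. Its window held 9 and 4 mitotic CTCF peaks, against 19 and 20 asynchronous CTCF peaks, and 1 and 1 mitotic SOX2 peaks, against 20 and 17 asynchronous SOX2 peaks. Both mitotic libraries called 4 of its 15 CTCF regions, 1 library called 3 and neither called 8. Over all CTCF regions genome-wide, 24.5% were called in both and 66.0% in neither.

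None of the 8 CTCF regions inside the Kcnq1 body was called in both mitotic libraries, 1 was called in replicate 1 and 7 in neither. Genome-wide, 22.7% of CTCF regions overlapping protein-coding gene bodies and 26.6% of those outside them were called in both. The strongest inside Kcnq1, 7:143152062-143153067, had 128 and 131 asynchronous reads and folds of 14.2 and 14.5 at the 95.7 percentile, and was called in neither mitotic library. Its neighbour 7:143153222-143154898, with 167 and 162 asynchronous reads, was called in mitotic replicate 1 with 49 reads. A region at the lower end of the gene, 7:143107077-143107553, had 47 and 30 asynchronous reads and was called in neither.

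Outside the Kcnq1 body, toward Ascl2, 3 CTCF regions overlapped Trpm5, a taste cell cation channel. The middle one, 7:143085594-143087840, was called in both mitotic libraries with 62 and 49 reads, against 146 and 133 reads in asynchronous libraries. The flanking regions, 7:143072710-143073666 and 7:143094548-143095707, were called in replicate 1 only, with 39 and 30 reads. The strongest SOX2 region near Kcnq1, 7:143437468-143438734, lay 10.4 kb from its upper end, had 102 and 57 asynchronous reads and was not called in mitosis.

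Kcnq1ot1, the antisense RNA inside Kcnq1, had no reproducible CTCF region within 50 kb and stood within a stretch of 221.8 kb without one (7:143154899-143376729). The mitotic CTCF lists and asynchronous CTCF replicate 1 had no peak in that stretch, and asynchronous CTCF replicate 2 had 1 peak. The median gap between neighbouring CTCF regions genome-wide was 14.3 kb, and 3.40% of 57971 gaps were at least as long. This share counts gaps, and long gaps cover more of the genome than their number. A given position therefore lies in a gap this long more often than that share. The stretch was chosen for its length after the values were seen.

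At the start of Kcnq1ot1 a SOX2 region, 7:143296368-143296777, overlapped the promoter window printed above. It had 35 and 15 asynchronous reads, with folds of 4.28 and 2.95 at the 31.9 percentile, and its summits stood 21 bases before and 60 bases after the start. It was a weak region within its lists and was not called in either mitotic library.

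Cdkn1c codes for the cyclin-dependent kinase inhibitor p57Kip2, and its window held the 1 SOX2 region of the 31 that was called in mitosis. That region, 7:143460539-143462103, covers the upper end of Cdkn1c (7:143458339-143461059), with its summit outside the gene body. In mitosis its peaks were 7:143461197-143461474 in replicate 1 and 7:143461184-143461418 in replicate 2, with 29 and 25 reads at the summit and folds of 4.60 and 6.03. With only peaks at a fold of at least 5, it was called in mitotic replicate 2 alone. The asynchronous libraries had 100 and 78 reads there and folds of 11.8 and 8.62, at the 88.3 percentile of strength. The summits of the 4 libraries lay within 43 bp of each other, and no CTCF region overlapped it.

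The same SOX2 region lies within 50 kb of Kcnq1 and Phlda2, so the mitotic SOX2 calls at these 3 genes are 1 site counted 3 times. Genome-wide, 2.34% of SOX2 regions in class 4 of strength were called in both mitotic libraries, and 3.67% of protein-coding genes had such a region within 50 kb. Of the 12 SOX2 regions overlapping the bodies of the 7 genes, this was the 1 called in both mitotic libraries, and none of the 19 outside them was, beside 0.836% of SOX2 regions overlapping protein-coding gene bodies and 0.491% of those outside them. Its mitotic peaks lay 0.138 and 0.125 kb outside the Cdkn1c body, so it overlaps the gene only through its asynchronous extent. A second SOX2 region in the gene, 7:143459163-143459882, had 37 and 32 asynchronous reads and was not called in mitosis.

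CTCF peaks near Cdkn1c numbered 8 and 6 in mitotic libraries, against 11 and 12 in asynchronous libraries. Both mitotic libraries called 5 of its 7 CTCF regions. The 7 regions had a median strength percentile of 87.6, in class 4, of which 67.5% genome-wide were called in both. The strongest, 7:143465834-143466989 at the start of Gm33663, had 101 and 68 reads in mitotic libraries, against 156 and 148 in asynchronous libraries, with folds of 10.8 and 7.83 against 15.6 and 12.5. The region beside it, 7:143463629-143464995, lay nearest to Cdkn1c, at 2.57 kb, and had 69 and 57 mitotic reads, against 138 and 131 asynchronous reads. All 4 values of the mitotic libraries at these regions lay below the asynchronous ones, in lists called separately and not given as a change in coverage.

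Farther from Cdkn1c, 7:143469848-143470650 had 60 and 49 mitotic reads, against 153 and 137 asynchronous reads. The region 7:143479922-143481165, over the organic cation transporter gene Slc22a18, had 100 and 56 mitotic reads, against 158 and 173 asynchronous reads. Inside Cdkn1c, mitotic CTCF replicate 1 had a weak peak at 7:143459383-143459639, with 23 reads and a fold of 2.12, and mitotic replicate 2 had none. Asynchronous CTCF replicate 1 had an overlapping peak at 7:143459134-143459391 with 31 reads, and replicate 2 a separate one at 7:143460185-143460620 with 30 reads, so no reproducible region was formed. Mitotic CTCF replicate 1 had another peak outside reproducible CTCF regions, 7:143465069-143465277, with 29 reads. It overlapped the asynchronous SOX2 region 7:143464947-143465266, which was not called in mitosis.

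Phlda2, a PH-domain protein that limits placental growth, had 9 and 7 mitotic CTCF peaks within 50 kb, against 10 and 13 asynchronous CTCF peaks, and both mitotic libraries called 6 of its 8 CTCF regions. Of these 6, 5 are also within 50 kb of Cdkn1c, and 4 lie nearest to that gene. The 8 regions near Phlda2 had a median strength percentile of 85.6, in class 4, of which 67.5% genome-wide were called in both. The region 7:143505339-143507396, 2.19 kb from Phlda2, had 59 and 72 mitotic reads, against 189 and 176 asynchronous reads, and each mitotic library had a second peak in it with 40 and 38 reads. The region at the histone chaperone gene Nap1l4, 7:143544050-143544797, had 59 and 40 mitotic reads, against 110 and 120 asynchronous reads, and an asynchronous SOX2 summit 5 to 50 bp away that was not called in mitosis. The weak CTCF region next to the gene, 7:143501163-143501480, and the SOX2 region at its upper end, 7:143503027-143503753, were called in neither mitotic library.

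Ascl2, a bHLH transcription factor needed for placental trophoblast, had 2 and 2 mitotic CTCF peaks within 50 kb, against 6 and 6 asynchronous CTCF peaks, and no mitotic SOX2 peak, against 10 and 8 asynchronous SOX2 peaks. The strongest CTCF region of both domains, 7:142918571-142920229, lay 46.6 kb from it, at rank 28 of 57992 by strength. It had 228 and 185 reads at its summit in mitotic libraries, against 368 and 345 in asynchronous libraries, with folds of 26.8 and 21.1 against 33.6 and 31.4. The other region called in both, 7:143007742-143008784 over the tetraspanin gene Tspan32, had 67 and 75 mitotic reads, against 133 and 141 asynchronous reads.

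At the Ascl2 gene itself a CTCF region, 7:142968036-142968558, and a SOX2 region, 7:142967272-142968294, overlapped each other, and neither was called in mitosis. Their asynchronous summits had 38 and 41 CTCF reads and 28 and 19 SOX2 reads. The strongest SOX2 region near Ascl2, 7:143013403-143014008 in Tspan32 with 53 and 67 asynchronous reads, was not called in mitosis either.

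**Figure D3:**
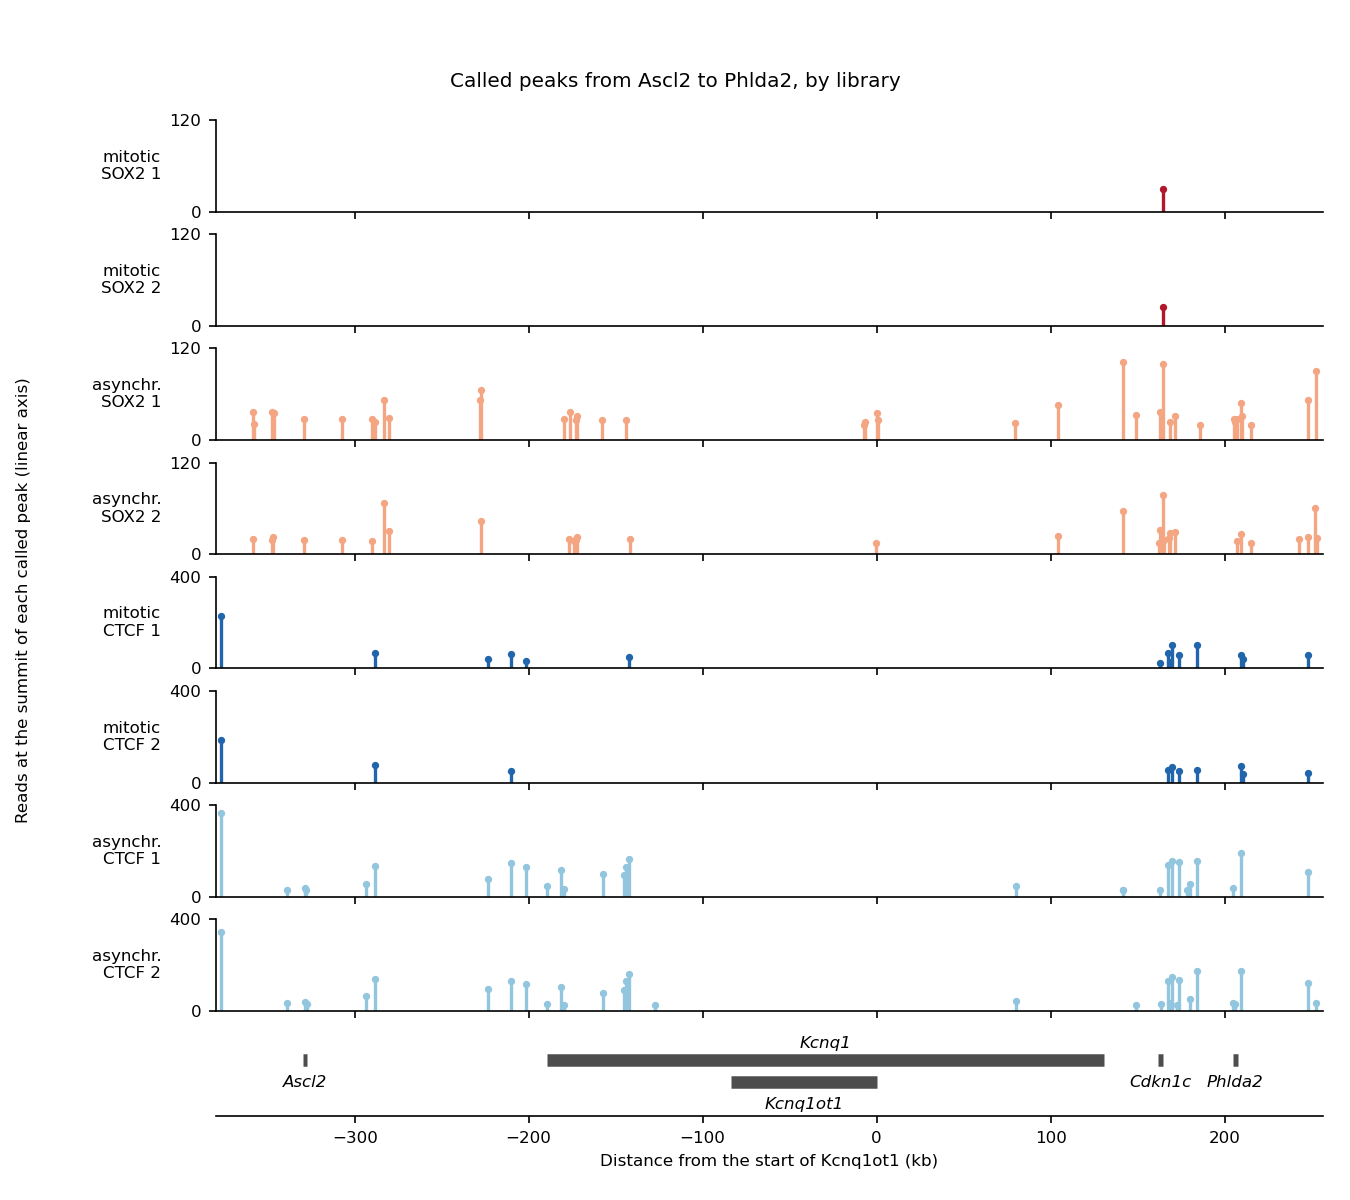
Peaks from Ascl2 to Phlda2 in each library, mitotic above asynchronous for each factor: horizontal axis, distance from the start of Kcnq1ot1 in kb toward higher coordinates; vertical axis, reads at the summit of each called peak. Mitotic CTCF peaks stand mostly beyond both ends of Kcnq1, no mitotic track has a peak near Kcnq1ot1, and the 1 mitotic SOX2 peak stands at Cdkn1c in both libraries.

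By domain, 1 of 10 CTCF regions near H19 and Igf2 was called in both mitotic libraries, 2 in 1 and 7 in neither, and 9 of 24 regions of the Kcnq1 domain were called in both, 3 in 1 and 12 in neither. By library the shares were 30% and 10% in the H19-Igf2 domain (Wilson intervals 10.8% to 60.3% and 1.79% to 40.4%) and 50% and 37.5% in the Kcnq1 domain (31.4% to 68.6% and 21.2% to 57.3%). The intervals cover counting error only, and the difference between the domains was not tested. Over all CTCF regions genome-wide, 24.5% were called in both, 66.0% in neither, and 33.0% and 25.4% in mitotic replicates 1 and 2. Without mitotic CTCF replicate 2, the regions called in the remaining mitotic library were 3 in the H19-Igf2 domain and 12 in the Kcnq1 domain.

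All 10 CTCF regions called in both mitotic libraries stood in class 4 of strength, at percentiles of 80.9 to 99.9 with a median of 87.1. Of the 16 regions in that class, 10 were called in both, 2 in 1 and 4 in neither, where 67.5% of class 4 genome-wide were called in both. In class 3, where 26.9% genome-wide were called in both, the counts were 0 in both, 3 in 1 and 7 in neither among 10 regions. The 6 and 2 regions of classes 1 and 2 were called in neither, beside 0.524% and 3.08% called in both genome-wide. In class 4 the H19-Igf2 domain had 4 regions, of which 1 was called in both, and the Kcnq1 domain had 12, of which 9 were called in both. The 11, 9 and 7 SOX2 regions of classes 1 to 3 were called in neither mitotic library, and in class 4 it was 1 of 4 SOX2 regions that was called, beside 0.0387%, 0.0155%, 0.310% and 2.34% called in both genome-wide in classes 1 to 4.

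**Figure D4:**
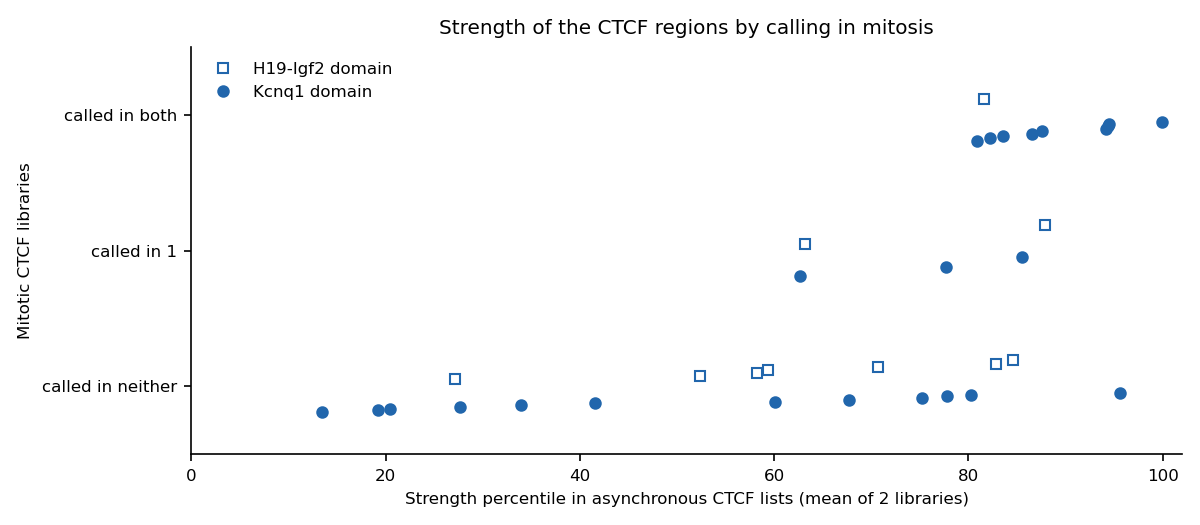
Strength percentile in the asynchronous CTCF lists (horizontal axis, mean of 2 libraries) of the 34 CTCF regions, by the number of mitotic libraries in which each was called (rows); open squares, H19-Igf2 domain; filled circles, Kcnq1 domain. All 10 regions called in both stand at or above 80.9, and 4 regions called in neither are in class 4 too, up to 95.7.

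Regions called in both also had similar summit positions in all libraries. The largest distance between the summits of the 4 CTCF libraries was 20 to 68 bp over the 10 regions, with a median of 52.5 bp, beside a median of 46 bp over all 14210 CTCF regions called in both. The summits of these 10 regions had 52 to 228 and 40 to 185 reads in mitotic replicates 1 and 2, against 110 to 368 and 120 to 345 in asynchronous replicates 1 and 2. The 19 regions called in neither had 28 to 128 and 27 to 131 asynchronous reads, so the ranges of both sets overlap. The lowest summit called anywhere in the mitotic CTCF lists had 20 and 22 reads, and a region not called in mitosis may still be bound below that depth.

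**Figure D5:**
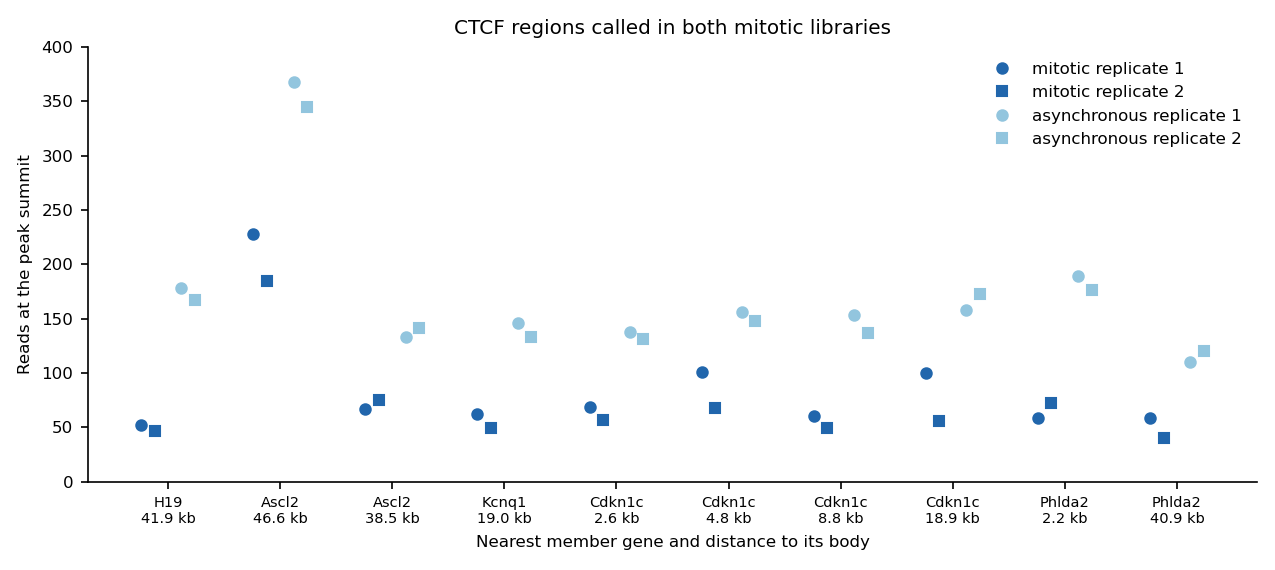
Reads at the peak summit (vertical axis) at 10 CTCF regions with a call in each mitotic library, ordered by position and labelled with the nearest gene of the set and the distance to its body; dark symbols, mitotic; light symbols, asynchronous; circles, replicate 1; squares, replicate 2. Within each region both mitotic values lie below both asynchronous values, and the region 46.6 kb from Ascl2 is the highest in every library. The values come from lists called separately and are not given as a change in coverage. How many of all CTCF regions have this order was not counted.

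SOX2 and CTCF regions overlapped by at least 1 bp at 7 of the 31 SOX2 regions, or 22.6%, beside 20.3% genome-wide. With the strongest summit of each region, SOX2 and CTCF summits lay within 100 bp at 3 of them, Gm33148, Gm39116 and Nap1l4, as they did at 6.58% of SOX2 regions genome-wide. Over single asynchronous libraries the distance was 5 to 50 bp at Nap1l4 in all pairs and 28 to 103 bp at Gm39116. At Gm33148 it was within 100 bp for SOX2 replicate 2 only. At the SOX2 region 7:143464947-143465266 near Cdkn1c it was 63 and 12 bp for CTCF replicate 2, but 1035 and 1086 bp for CTCF replicate 1. In mitosis the CTCF regions at Gm33148, Gm39116 and Nap1l4 were called in 1, 0 and 2 libraries, and the SOX2 regions in none. The SOX2 regions near the 7 genes had a median strength percentile of 49.0, beside 61.3 over all SOX2 regions, and the CTCF regions one of 77.7, beside 57.7 over all CTCF regions.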

How the data were processed

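The submitters' processing notes name MACS2 2.1.1.20160309, SAMtools, BWA 0.7.17 and CASAVA 1.4, with the build mm10. Which control was used, and with which options, is not given in the sources used here. A peak list of each library was deposited by the authors, none of pooled replicates. It holds the deposited fold, a ratio of summit coverage to local background, the −log10 of the summit's p-value and of its q-value as deposited, a deposited score and the deposited summit offset. The score was not used for a result. The lowest −log10 q of each list was 1.31 to 1.48, a q threshold of 0.05.

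Summit reads were solved from fold and −log10 p under the Poisson model of MACS2. They came out whole within 0.002 reads for 97.8% to 100% of peaks. Depth per 100 bp is the lowest local background (2.92 to 7.81 reads) over the shortest peak width (178 to 219 bp), taken as the fragment length. Genes are from RefSeq (49943 genes on GRCm38.p6, which mm10 corresponds to), with no strand except in the promoter table. Intervals and genes were matched in Python 3.11.15 with pandas 2.3.3 and SciPy 1.17.1. The overlap code and the solver were tested on simulated data, against bedtools 2.31.1.

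Named in the text were all 7 genes, every region called in mitosis, the strongest region per gene and factor, regions within 1 kb of a gene end and shared summits within 100 bp. The genes, lists and rules were chosen with earlier results of these data known, and the classes of strength, the comparison inside and outside gene bodies, the summit distances, the windows printed and the stretch around Kcnq1ot1 after seeing the values. Not analysed here were 52 libraries of histone marks and 26 of input. Alternatives were a −log10 q or a fold of at least 5, an overlap of 50%, regions of either asynchronous library, summits within 100 bp, distances of 10 and 100 kb, leaving out each library, and pairing by replicate number.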

Additional observations from a re-analysis of the deposited data

How the results depend on the processing

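Of 118 values recomputed under other settings, 98 were classed as the same, 20 as moved and none as reversed. For the mitotic over asynchronous ratios and the difference between factors, the same meant only an unchanged direction. Counts had to stay within a set fold of the reported count, and shares within the spread between replicates. For the share of SOX2 regions called in mitosis that spread was 0, so any change in it was classed as moved. The difference between CTCF and SOX2 shares was 16.6 points within 10 kb, against 33.5 as reported. It was classed as the same. The share of SOX2 regions called in mitosis, 3.23% as reported, was 5% at a −log10 q of at least 5, 7.14% at a fold of at least 5, 4.17% with summits within 100 bp, 1.82% over regions of either asynchronous library, and 5.88% and 2.94% within 10 and 100 kb. In each of these settings 1 SOX2 region was called, and the number of regions differed. At a fold of at least 5 its peak in mitotic replicate 1, with a fold of 4.60, is lost, so the region at Cdkn1c is called in replicate 2 only. The SOX2 regions overlapping a CTCF region were 8.33% with summits within 100 bp and 43.6% over regions of either asynchronous library. The H19-Igf2 count of CTCF regions called in both was 0 at a fold of at least 5 and within 10 kb, and 2 within 100 kb. Within 10 kb, the mean share of CTCF regions called in mitosis was 22.5%, with 4 called in both, all 4 in the Kcnq1 domain.

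Leaving out each library in turn gave mitotic over asynchronous ratios of 0.259 to 0.424 for CTCF and 0.02 to 0.0256 for SOX2. Mean shares called were 29.4% to 44.1% for CTCF and 2% to 3.23% for SOX2, with a difference of 26.2 to 40.9 points. CTCF regions called numbered 10 to 15, of which 1 to 3 were in the H19-Igf2 domain and 9 to 12 in the Kcnq1 domain, and 20.5% to 32.3% of SOX2 regions overlapped a CTCF region. The labels give no origin for the replicate numbers. Under the pairing by number, as a replicate block, the asynchronous peaks of each replicate were compared with the mitotic list of the same number. Values were averaged over both replicates. The SOX2 share was 2.28%, the CTCF ratio 0.342 and the SOX2 ratio 0.0228. The H19-Igf2 value, 2, is a mean number of asynchronous CTCF peaks overlapped in mitosis. It is not a count of regions called in both mitotic libraries.

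With 2 libraries per group the exact tests have a smallest p of 0.333. Peak lists show neither binding below the calling threshold nor the parental allele that was bound.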

Other observations

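Among 21 genes flanking the 7 imprinted genes on distal chromosome 7 that could be matched, of 22 looked up, 17 had a CTCF region called in both mitotic libraries within 50 kb, beside 63.6% of protein-coding genes. Slc22a18 and Nap1l4 had the most, 6 each of 8 and 9 regions. For both genes these are the same 6 regions, those called in both near Phlda2. Ins2, the insulin gene next to Igf2, had 6 CTCF regions, all called in neither mitotic library, beside 66.0% of all CTCF regions. Over all flanking genes 15 of 61 CTCF regions were called in both, or 24.6%, and 1 of 44 SOX2 regions, the region at Cdkn1c counted for Slc22a18. Those 15 CTCF regions include all 10 described near the 7 genes, so the flanking genes are not a separate set.

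Among 24 imprinted genes elsewhere in the genome, both mitotic libraries called 22 of 102 CTCF regions, or 21.6%, beside 24.5% of all CTCF regions. Of these genes 18 had such a region, among them Igf2r with 2 of 5, Airn with 3 of 7 and Usp29 with 3 of 8. Snrpn and Gnas had 8 CTCF regions each and none called in both. Gnas, which codes for a G protein subunit, had the 1 SOX2 region of 104 that was called in both. The genes named here were picked after their values were seen.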
